A study of Mus musculus with 7 samples.

Results

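The 9 genes described here encode subunits of the heterotrimeric Gi/o proteins that carry the signal of presynaptic receptors. They are the alpha subunits Gnao1, Gnai1, Gnai2, Gnai3 and Gnaz, the beta subunits Gnb1, Gnb2 and Gnb5, and the gamma subunit Gng3. The rule that picks them uses gene symbols and no measured values, though it was set with earlier results of these data known, and each matched 1 of the 22248 genes in the deposited table. All 9 passed the filter on low counts and were among the 14654 genes tested. RNA was sequenced from synaptoneurosomes, pinched-off synaptic endings enriched from tissue, which were prepared from the hippocampus of wild-type female C57Bl/6J mice. The 7 libraries fall into 4 of the AM6545 group, lettered B, D, E and F, and 3 of the vehicle group, lettered B, D and E. The treatment is described as sub-chronic, and its dose and duration, the age of the mice and the number of mice behind each library are not given in the labels. Since nothing says that the libraries of a group come from separate animals, p-values measure only the spread between these libraries, which may be technical.

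A Gi/o protein sits on the inner face of the membrane as an alpha subunit holding GDP and a beta-gamma pair. An activated receptor makes the alpha subunit exchange GDP for GTP, after which alpha and beta-gamma separate. Alpha subunits of the Gi class inhibit adenylyl cyclase, and at presynaptic endings free beta-gamma restrains calcium channels and the SNARE fusion machinery, which lowers transmitter release. The CB1 cannabinoid receptor, encoded by Cnr1, couples to these proteins, and AM6545 is a CB1 antagonist known for entering the brain poorly. The comparison of AM6545 with vehicle asks whether the RNA of these subunits in hippocampal synaptic preparations differs after this treatment.

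The alpha subunits meet the receptor through their carboxyl end, and all but Gnaz carry a cysteine there that pertussis toxin modifies. The last 36 coding bases before the stop codon are shown because they separate the toxin-sensitive alpha subunits from Gnaz and separate the splice forms of Gnao1 described below. They come from the GENCODE M21 transcripts (GRCm38), run 5′ to 3′ on the coding strand, and the capitals mark the 4th codon from the end.
Gnao1-201 and Gnao1-203: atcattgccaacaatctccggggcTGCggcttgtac
Gnao1-207: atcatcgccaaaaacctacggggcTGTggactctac
Gnai1-201: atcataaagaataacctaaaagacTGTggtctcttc
Gnai2-201 and Gnai2-202: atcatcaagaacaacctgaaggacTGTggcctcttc
Gnai3-201: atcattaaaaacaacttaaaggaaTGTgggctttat
Gnaz-201: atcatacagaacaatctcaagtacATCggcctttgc
TGC and TGT both code for cysteine, and Gnaz has ATC, a codon for isoleucine, at that place.

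The libraries held 19174649 to 25894733 estimated counts over all genes. Vehicle library B stood apart on the first principal component of all genes, which held 34.2% of the variance (41.1, against -21.7 to 11.5 in the other libraries). Mitochondrial genes made up 9.83% of its counts and 5.07% to 6.66% of those of the other 6 libraries. Across all genes tested, 1 passed an adjusted p of 0.05 in edgeR's quasi-likelihood test (0.00682%), and 2134 had an unadjusted p under 0.05 (14.6%), 859 higher with AM6545 and 1275 lower. Scaling by total counts instead turned that split to 1104 higher and 943 lower. The count was 954 without vehicle library B and 3810 (1902 higher, 1908 lower) without vehicle library E, so the background shares rest on those libraries too. It was 988 with a correction for GC content and length. With limma-voom, run with quality weights for the libraries, it was 3508 (1749 higher, 1759 lower). In 971 genes (6.63%) all AM6545 libraries lay above all vehicle libraries, and in 1053 (7.19%) all lay below. Levels of single genes in CPM are estimated counts scaled by effective library size. The sums of marker genes in CPM were instead scaled by the total counts of each library. Neuron and synapse markers, all 12 detected in each library, summed to 12360 to 13290 CPM with AM6545 and 11880 to 12890 CPM with vehicle. Within that list Shank3 (-0.82), Dlg4 (-0.52) and Nrgn (-0.37), all of the postsynaptic side, were lower on the log2 scale at an unadjusted p under 0.05. The list as a whole split into 6 higher and 6 lower, with a median log2 fold change of -0.02. Its groups were apart only for Shank3, lower with AM6545, and Snap25 (0.21), higher with AM6545. Camk2a was at -0.09 and Map2 at 0.08. The 8 inhibitory neuron markers summed to 942.2 to 1056 CPM with AM6545 and 1036 to 1163 CPM with vehicle, with a median log2 fold change of -0.30. Of these Sst (-0.41), Npy (-0.42) and Cck (-0.41), which encode neuropeptides, were lower at an unadjusted p under 0.05, while Vip was at -0.04. Pvalb (-0.35) and Slc32a1 (-0.25), which encode no neuropeptide, were also lower, without reaching that p. Gad1 (0.29) and Gad2 (0.12) were the 2 markers of this list that were higher with AM6545. The part of these shifts in the subunit levels was not tested. RNA of other cells was present too. The oligodendrocyte markers summed to 17720 to 21160 and 16430 to 22560 CPM, those of astrocytes to 5137 to 6110 and 5449 to 6385 CPM, and those of microglia to 1183 to 1343 and 1313 to 1570 CPM. Choroid plexus markers ranged from 436.5 to 2103 CPM with AM6545 and from 1563 to 2965 CPM with vehicle. None of the marker genes was at 0 in any library, and the groups overlapped in the sum of every list. In such bulk preparations fewer cells or endings of a kind and less RNA in each cannot be told apart.

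No Gi/o subunit gene passed a p of 0.05 adjusted over all genes in edgeR's quasi-likelihood test, where 1 of all genes tested did (0.00682%). DESeq2 called 1 member (Gnai3) among 247 genes called. Limma-voom with quality weights for the libraries called 0 members among 394 genes called. The largest differences were higher levels of Gnai3 and Gnai1 and a lower level of Gng3 with AM6545. Their unadjusted p-values were under 0.05, which makes 2 of 9 members higher and 1 of 9 lower, beside 5.86% and 8.7% of all genes tested. Gnai1 and Gnai3 were also the 2 members whose groups did not overlap, both higher with AM6545, and the other 7 overlapped. Of all genes tested, 6.63% were apart and higher with AM6545 and 7.19% apart and lower. The log2 fold change was above 0 in 3 members and below 0 in 6, against 51.4% of all genes above 0. Its median over the members was -0.04, beside 0.0079 over all genes tested, and the standard errors ran from 0.0925 to 0.151.

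**Figure D1:**
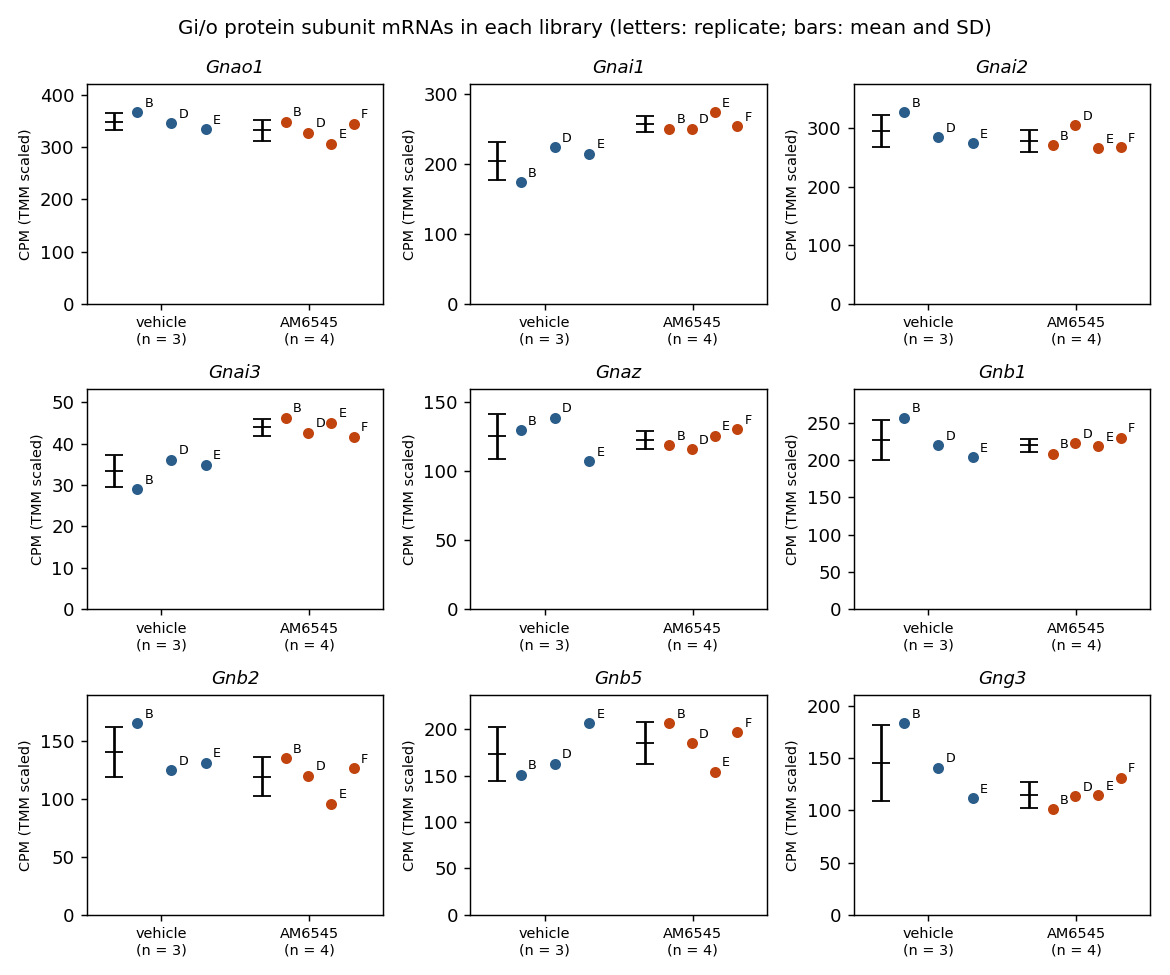
Level of each of the 9 subunit genes in CPM (vertical axis from 0, one panel per gene), with a point for each of the 4 AM6545 and 3 vehicle libraries and the group mean with its SD. The AM6545 points of Gnai1 and Gnai3 all lie above the vehicle points, and the groups overlap in the other 7 panels.

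Gnao1 encodes the alpha subunit of Go, a principal G protein of neurons. It lies on chromosome 8 from 93809966 to 93969388, plus strand (GRCm38, GENCODE M21, as for all places given here). The AM6545 libraries B, D, E and F held 348, 327, 306 and 345 CPM, and the vehicle libraries B, D and E held 366, 346 and 334 CPM. The groups overlapped, with AM6545 library E the lowest and vehicle library B the highest. The means were 332 ± 19.2 CPM (SD, n = 4) and 349 ± 16.5 CPM (SD, n = 3). In edgeR's fit the log2 fold change was -0.07 (SE 0.093, 95% interval -0.27 to 0.13, edgeR adjusted p = 0.733). It was between -0.10 and -0.03 on leaving out single libraries, the smallest without vehicle library B. The correction for GC content and length gave -0.14.

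Gnai1 encodes an inhibitory alpha subunit that is abundant in brain. Its gene is on chromosome 5 from 18265135 to 18360355, minus strand. Its level was 250.7, 251.2, 274.4 and 254.5 CPM in AM6545 libraries B, D, E and F and 174, 224 and 215 CPM in vehicle libraries B, D and E. Every AM6545 library was above every vehicle library, and vehicle library B was the lowest. The means were 258 ± 11.2 CPM (SD, n = 4) and 204 ± 26.8 CPM (SD, n = 3). The log2 fold change was 0.33 (SE 0.106, 95% interval 0.10 to 0.56), a ratio of 1.26, with an unadjusted p of 0.00814 and an adjusted p of 0.235 in edgeR's test. Without vehicle library B it was 0.23 (adjusted p = 0.722). With a correction for GC content and length it was 0.13 (unadjusted p = 0.126, adjusted p = 0.76).

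Gnai3 encodes the third inhibitory alpha subunit, found in most tissues. It lies on chromosome 3 from 108107280 to 108146146, minus strand. The AM6545 libraries B, D, E and F held 46.2, 42.6, 45.1 and 41.7 CPM, and the vehicle libraries B, D and E held 28.9, 36.1 and 34.9 CPM. All AM6545 values again exceeded all vehicle values, with vehicle library B lowest. The means were 43.9 ± 2.11 CPM (SD, n = 4) and 33.3 ± 3.86 CPM (SD, n = 3). The log2 fold change was 0.40 (SE 0.107, 95% interval 0.17 to 0.63), a ratio of 1.32, with an unadjusted p of 0.00274 and an adjusted p of 0.199 in edgeR's test. DESeq2 gave an adjusted p of 0.0432 and the fit without vehicle library E one of 0.0477, while the fit without vehicle library B gave a log2 fold change of 0.31 and an adjusted p of 0.644. With the GC content and length correction the log2 fold change was 0.18 (unadjusted p = 0.0504, adjusted p = 0.73).

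Gnai2 encodes the inhibitory alpha subunit that is widespread outside neurons as well, including in microglia and endothelial cells. Its gene is on chromosome 9 from 107614125 to 107635367, minus strand. Its level was 271, 305, 266 and 268 CPM in AM6545 libraries B, D, E and F and 327, 284 and 274 CPM in vehicle libraries B, D and E. The groups overlapped, and vehicle library B was the highest. The means were 277 ± 18.5 CPM (SD, n = 4) and 295 ± 27.9 CPM (SD, n = 3). In edgeR's fit the log2 fold change was -0.09 (SE 0.100, 95% interval -0.31 to 0.13, edgeR adjusted p = 0.688), and it was -0.0069 without vehicle library B and -0.14 without vehicle library E. Of the 12 microglia markers, 7 had an unadjusted p under 0.05, all lower with AM6545 (8.7% of all genes tested were), and their median log2 fold change was -0.33. None of the 12 endothelial and mural markers did, and their median was 0.15. The part of such cells in the Gnai2 level was not tested.

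Gnaz encodes the alpha subunit of Gz, which hydrolyses GTP slowly and, as its tail above shows, lacks the cysteine codon. It lies on chromosome 10 from 74967177 to 75016907, plus strand. The AM6545 libraries B, D, E and F held 119, 116, 126 and 131 CPM, and the vehicle libraries B, D and E held 129.6, 139 and 107 CPM. The AM6545 values lay wholly within the range of the vehicle values. The means were 123 ± 6.71 CPM (SD, n = 4) and 125 ± 16.2 CPM (SD, n = 3). Fitted across all libraries, the log2 fold change was -0.03 (SE 0.106, 95% interval -0.26 to 0.20, edgeR adjusted p = 0.912), and it ran from -0.13 without vehicle library E to 0.05 without vehicle library D.

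Gnb1 encodes the beta subunit that pairs with most alpha subunits in brain. Its gene is on chromosome 4 from 155491361 to 155559269, plus strand. Its level was 208.5, 222.5, 218.5 and 230.1 CPM in AM6545 libraries B, D, E and F and 257, 219.6 and 204 CPM in vehicle libraries B, D and E. The vehicle libraries held both the highest and the lowest value. The means were 219.9 ± 9.01 CPM (SD, n = 4) and 227 ± 27.1 CPM (SD, n = 3). Fitted across all libraries, the log2 fold change was -0.04 (SE 0.101, 95% interval -0.26 to 0.18, edgeR adjusted p = 0.857), and it was 0.06 without vehicle library B. The correction for GC content and length gave -0.20.

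Gnb2 encodes a close relative of Gnb1 with a similar role. It lies on chromosome 5 from 137528127 to 137533510, minus strand. The AM6545 libraries B, D, E and F held 135, 119.9, 95.6 and 127 CPM, and the vehicle libraries B, D and E held 165, 125 and 131 CPM. The groups overlapped, with AM6545 library E lowest and vehicle library B highest. The means were 119 ± 16.9 CPM (SD, n = 4) and 140.3 ± 21.6 CPM (SD, n = 3). In edgeR's fit the log2 fold change was -0.24 (SE 0.133, 95% interval -0.52 to 0.05, edgeR adjusted p = 0.430). It was -0.10 without vehicle library B and 0.0004 with the GC content and length correction. The Gnb2 gene has the highest GC content of the members, 60.3%.

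Gnb5 encodes the divergent beta subunit that partners the R7 family of RGS proteins, which shorten Gi/o signals, rather than a conventional gamma subunit. Its gene is on chromosome 9 from 75306288 to 75345876, plus strand. Its level was 207, 185, 154 and 197 CPM in AM6545 libraries B, D, E and F and 151, 163 and 207 CPM in vehicle libraries B, D and E. Both groups reached nearly the same highest and lowest values. The means were 186 ± 22.7 CPM (SD, n = 4) and 174 ± 29.1 CPM (SD, n = 3). Fitted across all libraries, the log2 fold change was 0.10 (SE 0.131, 95% interval -0.19 to 0.38, edgeR adjusted p = 0.746), 0.01 without vehicle library B and 0.24 without vehicle library E.

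Gng3 encodes a gamma subunit made mainly by neurons. It lies on chromosome 19 from 8836933 to 8839194, minus strand. The AM6545 libraries B, D, E and F held 101, 113, 114 and 131 CPM, and the vehicle libraries B, D and E held 183, 141 and 111 CPM. Vehicle library E lay within the AM6545 values, while vehicle libraries B and D lay above them all. The means were 115 ± 12.3 CPM (SD, n = 4) and 145 ± 36.1 CPM (SD, n = 3). The log2 fold change was -0.34 (SE 0.151, 95% interval -0.66 to -0.01), a ratio of 0.792, with an unadjusted p of 0.0454 and an adjusted p of 0.333 in edgeR's test. The value rested on single vehicle libraries: it was -0.13 without library B (adjusted p = 0.907) and -0.49 without library E (adjusted p = 0.0385). Scaling by total counts gave -0.30 with an unadjusted p of 0.0646, and the GC content and length correction gave -0.25 with one of 0.113. Exons of Bscl2, the seipin gene, lie on the opposite strand over 398 bases of Gng3 exons, 24.2% of their length, and whether the counting used strand is not given in the sources used here. Bscl2 held 112.1 to 127.1 CPM with AM6545 and 122.6 to 159.2 CPM with vehicle, with a log2 fold change of -0.24 (SE 0.108, edgeR adjusted p = 0.335). Reads of the 2 genes in that stretch may not have been told apart, so the Gng3 level is uncertain.

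**Figure D2:**
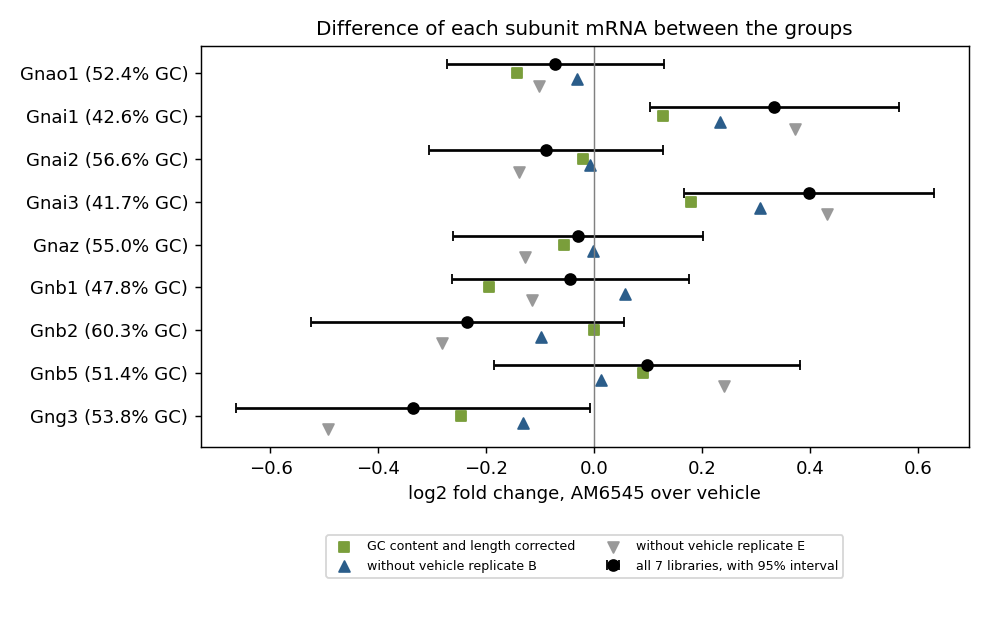
Log2 fold change of AM6545 over vehicle for the 9 subunit genes (horizontal axis, with the GC content of each gene beside its name), as fitted on all libraries with 95% intervals, with the GC content and length correction, and without vehicle library B or E. Gnai1 and Gnai3 stay above 0 in each fit shown, at 0.13 and 0.18 with the correction, and Gng3 runs from -0.49 to -0.13.

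The remaining overlaps were small. Gnb2 shares 104 exonic bases with Epo, which was listed at 0 in all 7 libraries, Gnao1 shares 284 bases with 4930488L21Rik, and Gnb5 shares 248 bases, 8.0% of its exons, with Gm19531. Among stretches of 31 bases in the most abundant transcript of each member, at most 0.39% were also found in transcripts of any single other gene. Sequence on the opposite strand was not compared, so overlaps such as that of Gng3 with Bscl2 are not counted in this. The GC contents of Gnai1 and Gnai3, 42.6% and 41.7%, were the lowest of the members. Their values with the correction for GC content and length are given above, and the part of GC content in their difference was not tested otherwise. The log2 fold changes of Gnao1, Gnb1 and Gnaz (-0.06) were lower with the correction than without it. Gnai2 was at -0.02 and Gnb5 at 0.09 with the correction.

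Levels of different genes were compared per length, as estimated counts divided by a gene length and scaled to one common sum per library, as in TPM. That length was the mean over the gene's annotated transcripts, weighted by their mean estimated counts in these libraries. It therefore depends on the estimated split of counts among transcripts. Gnai2 was the highest of the members, at 257 ± 14.9 TPM (SD, n = 7), and its lowest library lay above the highest library of Gnao1, at 190.4 ± 9.43 TPM. Next came Gnb2 at 173.5 ± 18.6, Gnb5 at 170.5 ± 26.1, Gng3 at 152.5 ± 25.2, Gnai1 at 149 ± 28.6 and Gnb1 at 143 ± 9.14 TPM. From Gnao1 down to Gnb1 the library ranges of neighbours in this order overlapped. Gnaz, at 70.3 ± 7.73 TPM, was below Gnb1 in each library, with ranges apart, and Gnai3 was last at 24.0 ± 4.90 TPM, below Gnaz in each library. Gnai2 was above 96.1% of all genes tested and Gnai3 above 63.1%. The order depends on the length taken. With merged exon length, Gng3 (228 TPM), Gnai1 (224 TPM) and Gnai2 (222.5 TPM) led, Gnao1 stood at 90.7 TPM and Gnb2 at 111 TPM, and Gnai3 was still last at 36.04 TPM.

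As shares of the summed alpha subunit level per length, Gnai2 made up 37.4% on average, Gnao1 27.6%, Gnai1 21.4%, Gnaz 10.2% and Gnai3 3.45%. Gnai1 took 22.7%, 22.3%, 25.2% and 23.0% in AM6545 libraries B, D, E and F and 15.6%, 20.35% and 20.7% in vehicle libraries B, D and E. Gnai3 took 3.62% to 4.03% with AM6545 and 2.49% to 3.24% with vehicle, so the groups were apart for both genes. Gnai2 took 34.8% to 38.9% and 37.1% to 42.1%, and Gnao1 25.2% to 28.2% and 28.05% to 29.3%, with overlap. The summed alpha level was 720.1 ± 12.5 TPM with AM6545 (SD, n = 4) and 652.5 ± 52.9 TPM with vehicle (SD, n = 3), with overlapping libraries. These shares sum to a whole and restate the gene levels above, so no test was made of them. They depend on the length taken. With merged exon length, chosen after seeing the data, Gnai2 averaged 33.2%, Gnai1 32.9%, Gnaz 15.1%, Gnao1 13.5% and Gnai3 5.29%. Gnai1 and Gnai3 were again apart between the groups, at 34.02% to 37.4% against 25.2% to 32.4% and 5.50% to 6.15% against 4.03% to 5.06%. Gnao1 was then apart too, at 11.8% to 13.7% with AM6545 and 13.8% to 15.1% with vehicle. Among the beta subunits, Gnb5 took 34.9% to 38.0% with AM6545 and 26.8% to 38.6% with vehicle, Gnb2 31.3% to 35.8% and 35.4% to 42.2%, and Gnb1 26.2% to 33.8% and 26% to 31%. The lowest Gnb5 share and the highest Gnb2 share were both in vehicle library B.

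**Figure D3:**
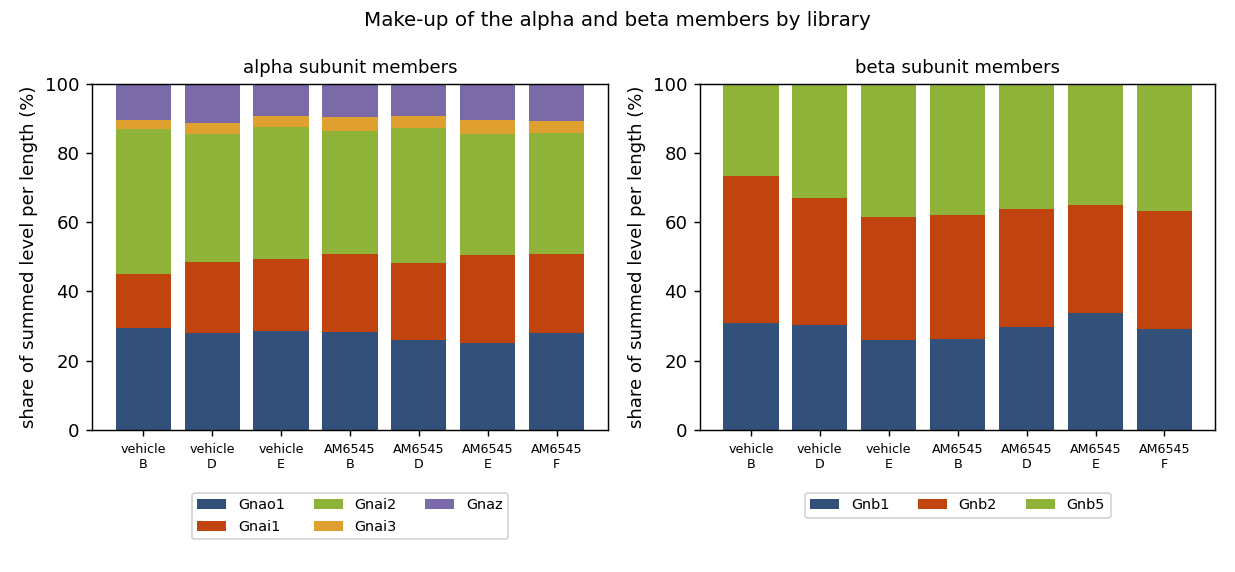
Share of each gene in the summed level per length (percent, vertical axis) of the 5 alpha subunits and of the 3 beta subunits, as stacked bars for the 4 AM6545 and 3 vehicle libraries. With these lengths Gnai2 and Gnao1 fill most of the alpha bars (with merged exon length Gnai2 and Gnai1 do), and Gnai1 takes 22.3% to 25.2% with AM6545 and 15.6% to 20.7% with vehicle.

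The 9 genes have 60 annotated transcripts in the deposited transcript table, of which 27 were tested and 18 held a mean share of at least 5% of their gene's estimated counts. None of the 27 passed an adjusted p of 0.05 in edgeR's test over the 33962 transcripts tested, where 6 transcripts did (0.0177%). DESeq2 called 2 of the 27 (Gnb1-202 and Gnai3-201), among 431 transcripts called. At an unadjusted p under 0.05 there were 2 higher, beside 3.89% of all transcripts tested, and 2 lower, beside 4.5%. The 2 higher ones were Gnai1-201 and Gnai3-201, the only transcripts with counts for their genes, so they repeat the gene values. The 2 lower ones were Gnb1-202 and Gnao1-212, the second a form with at most 0.615% of its gene's counts in any library that was named here after its value was seen. Its share was 0.0865% to 0.224% with AM6545 and 0.323% to 0.615% with vehicle, without overlap. The part of all transcripts tested whose shares were apart in this way was not counted.

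Gnao1 counts fell mainly to 3 transcripts. Gnao1-203 took 48.2%, 47.4%, 50.1% and 44.9% in AM6545 libraries B, D, E and F and 35.4%, 44.0% and 45.2% in vehicle libraries B, D and E. Gnao1-201 took 36.5%, 40.1%, 39.0% and 43.0% in the first group and 49.2%, 40.3% and 39.0% in the second. These transcripts share the carboxyl end shown above, and their joint share was 87.3% ± 1.81 with AM6545 (SD, n = 4) and 84.4% ± 0.231 with vehicle (SD, n = 3). The joint shares of the groups were just apart, at 84.8% to 89.1% and 84.2% to 84.65%. There is no count over other genes beside which to read this. Gnao1-207, with the other end, took 14.6%, 11.9%, 10.2% and 11.4% with AM6545 and 14.3%, 14.8% and 14.8% with vehicle. Its share was below all vehicle libraries in AM6545 libraries D, E and F and within their range in B. The log2 fold change of Gnao1-207 was -0.34 (SE 0.156, edgeR adjusted p = 0.622).

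Gnb1-201 held 47.0% of Gnb1 counts on average and Gnb1-202 32%. The Gnb1-202 share was 27.6%, 28.2%, 26.2% and 32.1% in AM6545 libraries B, D, E and F and 31.8%, 35.8% and 42.0% in vehicle libraries B, D and E. Only AM6545 library F and vehicle library B overlapped. The log2 fold change of Gnb1-202 was -0.38 (SE 0.104, edgeR adjusted p = 0.559). Gnb2-204 held 61.6% of Gnb2 counts, and Gnb2-213, annotated as a retained intron, 13.2%. Gnai2-201 held 92.4% of Gnai2 counts and Gnai2-202, with the same end, 7.34%. Gnb5-206, Gnaz-201 and Gng3-201 held 98.7%, 98.6% and all of their genes' counts. Of the 18 transcripts of at least 5% share, only Gnaz-201 had groups that were apart in share, at 98.7% to 99.2% with AM6545 and 98.2% to 98.5% with vehicle. How often groups were apart in share among all transcripts tested was not counted, so this count has no background to be read against.

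**Figure D4:**
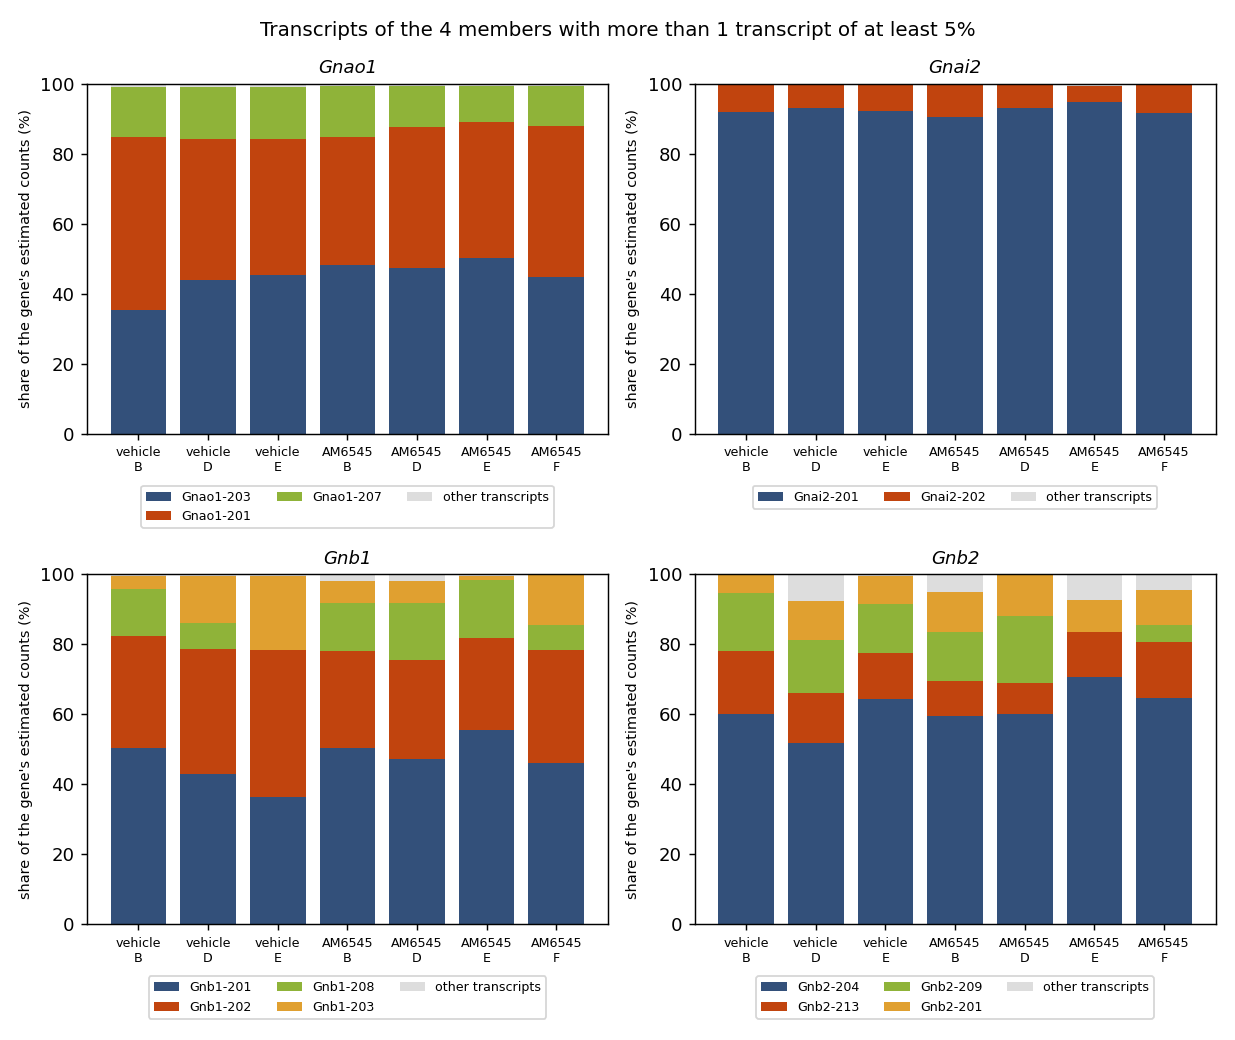
Share of each transcript in its gene's estimated counts (percent, vertical axis) as stacked bars for each vehicle and AM6545 library, for the 4 members with several transcripts of at least 5%. Gnb1-202 lies at 26.2% to 32.1% with AM6545 and at 31.8% to 42.0% with vehicle, and Gnao1-207 at 10.2% to 14.6% and 14.3% to 14.8%.

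The other genes of the pathway were taken from 6 lists, and none of their genes passed an adjusted p of 0.05 in edgeR's test. DESeq2 called Gng13, Gng5, Rgs4 and Adcy1 lower or higher in the directions given below, and limma-voom called Gng5, Rgs4, Rce1 and Adcy1. Over all genes tested DESeq2 called 247 and limma-voom 394. The counts at an unadjusted p under 0.05 that follow stand beside 5.86% of all genes tested higher and 8.7% lower. Of 11 other alpha subunit genes 8 were tested, and none had an unadjusted p under 0.05 (3 higher, 5 lower, median log2 fold change -0.02). Gnas, which encodes the stimulatory alpha subunit, held 1675 ± 148 CPM with AM6545 (SD, n = 4) and 1721 ± 118 CPM with vehicle (SD, n = 3), a log2 fold change of -0.04. Gna11, of the Gq class, was at -0.20 and Gna14, with 1.66 CPM against 1.25 CPM, at 0.44 (SE 0.286). On the opposite strand Gm20721 overlaps 13.1% and Nespas 8.8% of the exons of Gnas, so its level is uncertain.

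Of 13 other beta and gamma genes 11 were tested, with a median of -0.18, 1 higher and 3 lower at an unadjusted p under 0.05. Gng13 held 9.47 to 10.6 CPM with AM6545 and 12.7 to 20.8 CPM with vehicle, without overlap. Its log2 fold change was -0.68 (SE 0.161, edgeR adjusted p = 0.199), and Chtf18 exons on the opposite strand cover 51.6% of its exons, so its level is uncertain. Gng2, whose exons Gm48283 overlaps on the opposite strand over 20.4%, was at 0.26 (SE 0.102, edgeR adjusted p = 0.289) and Gng7, a striatal and forebrain gamma subunit, at 0.00. The other 2 lower genes were Gng5 (-0.53) and Gngt2 (-0.42), named after their values were seen.

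Of 34 Gi/o-coupled receptor genes 30 were tested, with 15 higher and 15 lower, a median of 0.00 and 1 higher and 3 lower at an unadjusted p under 0.05. Gabbr1, a subunit of the GABA-B receptor, was at -0.13 and Adora1, the A1 adenosine receptor, at -0.06, with Mybph on the opposite strand of 20.1% of its exons. Npy2r, a neuropeptide Y receptor, held 71.1 to 94.3 CPM with AM6545 and 62.2 to 71.8 CPM with vehicle (log2 fold change 0.29, edgeR adjusted p = 0.314). Adra2c, an alpha-2 adrenergic receptor, held 44.4 to 60.1 CPM and 62.6 to 68.3 CPM, without overlap (log2 fold change -0.33, edgeR adjusted p = 0.245). The other 2 lower receptors, named after their values were seen, were the glutamate receptor genes Grm2 (-0.32) and Grm4 (-0.38).

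Of 26 genes for RGS proteins, which speed GTP hydrolysis by alpha subunits, and other regulators, 25 were tested. There were 12 higher and 13 lower with a median of -0.01, and 2 higher and 0 lower at an unadjusted p under 0.05. Rgs4 held 217, 201, 210.1 and 206 CPM in AM6545 libraries B, D, E and F and 159, 162 and 182 CPM in vehicle libraries B, D and E. All AM6545 values of Rgs4 lay above the vehicle values (log2 fold change 0.31, SE 0.092, edgeR adjusted p = 0.218). Rgs7bp, the anchor of R7 RGS proteins with Gnb5, was at -0.22 and Rgs10 at -0.24. The second gene with an unadjusted p under 0.05 was Gpsm2 (0.29), named after its value was seen.

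All 18 genes for subunit assembly and lipid modification were tested, and 14 were higher, with a median of 0.08. At an unadjusted p under 0.05 there were 2 higher and 2 lower. Lypla1, a depalmitoylating thioesterase, held 38.7 to 45.6 CPM with AM6545 and 30.03 to 37.1 CPM with vehicle (log2 fold change 0.35, edgeR adjusted p = 0.235). Gm37988 shares 8.8% of the Lypla1 exons. The second higher gene, named after its value was seen, was Pdcl (0.28), whose product takes part in beta-gamma assembly. Abhd17a, another depalmitoylating enzyme, was at -0.32 and Rce1, a protease that trims prenylated proteins such as gamma subunits, at -0.34. Cct5, a chaperonin subunit that takes part in beta subunit folding, was at 0.07 (SE 0.187).

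Of 20 effector genes 19 were tested, with 7 higher and 12 lower, a median of -0.04, and 0 higher and 6 lower at an unadjusted p under 0.05, beside 5.86% and 8.7% of all genes tested. Adcy1, a calcium-stimulated adenylyl cyclase, held 228, 274, 265 and 282 CPM in AM6545 libraries B, D, E and F and 376, 380.3 and 307 CPM in vehicle libraries B, D and E. The groups did not overlap (log2 fold change -0.43, SE 0.111, edgeR adjusted p = 0.199). The other 5 were the cyclases Adcy5 (-0.39), Adcy6 (-0.53) and Adcy9 (-0.42) and the calcium channel genes Cacna1a (-0.42) and Cacna1b (-0.48), named after their values were seen. Snap25, a SNARE protein that beta-gamma binds, held 3549 to 3907 CPM with AM6545 and 3145 to 3273 CPM with vehicle (log2 fold change 0.21, edgeR adjusted p = 0.365).

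**Figure D5:**
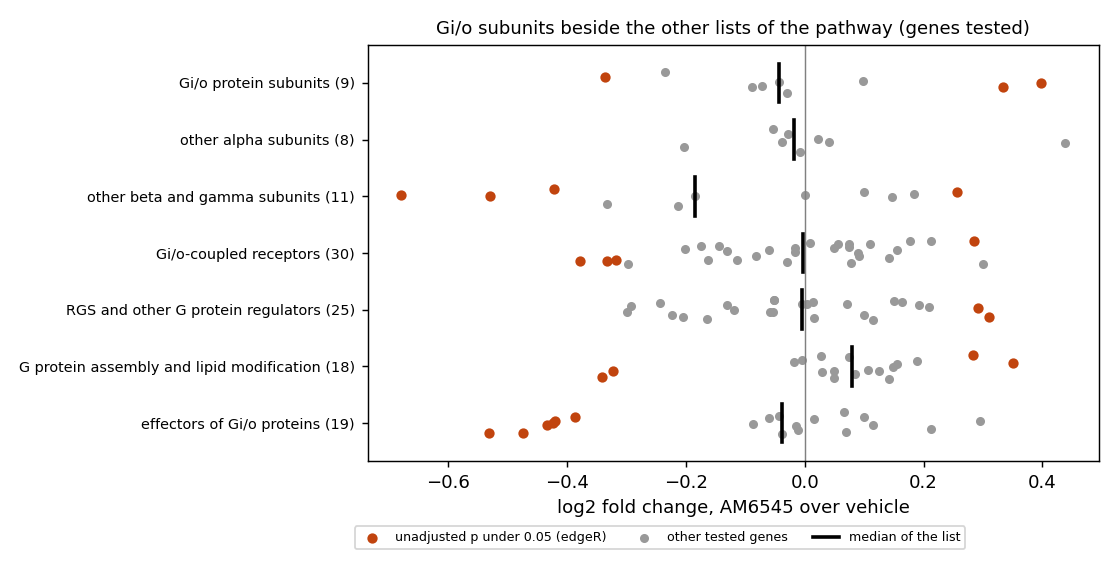
Log2 fold change of AM6545 over vehicle (horizontal axis) for each tested gene of the 9 subunits and of the 6 pathway lists (rows), with the list median as a black bar and genes of unadjusted p under 0.05 in edgeR's test in orange. The medians run from -0.18 in the other beta and gamma subunits to 0.08 in assembly and lipid modification, and no gene passed an adjusted p of 0.05.

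The members' patterns across libraries were also compared with those of 9626 genes of at least 10 CPM, as the root mean square difference between log2 CPM profiles centred on their means over the 7 libraries. Gnai3 and Gnai1 were the pair of members most alike, with a difference of 0.0613. Even so, 10 genes were nearer to Gnai3 than Gnai1 was, and 67 genes were nearer to Gnai1 than Gnai3 was. The gene nearest to Gnai3 was Rnf14 (0.0399) and the one nearest to Gnai1 was Ube2j1 (0.0195). Nearest to the other members were Mrpl37 for Gnao1 (0.0142), Arglu1 for Gnai2 (0.0243), Zmynd19 for Gnaz (0.0311), Rexo2 for Gnb1 (0.0213), Nt5c for Gnb2 (0.0292), Tada1 for Gnb5 (0.0236) and Shisa6 for Gng3 (0.0434). Gnb5 and Gng3 were the farthest from their nearest fellow members. For Gnb5 that was Gnao1 at 0.193, with 3414 genes nearer, and for Gng3 it was Gnb1 at 0.182, with 1521 genes nearer. All genes were measured in the same 7 libraries, whose differences in depth and composition bear on every profile. These distances are a description without a test.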

How the data were processed

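RNA of hippocampal synaptoneurosomes was sequenced in 7 libraries, 4 AM6545 and 3 vehicle. The authors deposited estimated counts per gene and per transcript; the submitters' processing notes name Salmon 1.5.2 and mm10, and the annotation release and strand setting are not given in the sources used here. Of the gene values above 0, 83.5% were not whole, so estimated counts were rounded. Identifiers were matched to GENCODE M21 (22194 of 22248 genes, 101527 of 102392 transcripts); 22181 genes carried a higher identifier version than in M21, so places and lengths may differ slightly from those the authors used.

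Genes passing filterByExpr were tested with edgeR 4.0.16 (R 4.3.3): TMM scaling, robust quasi-likelihood fit, Benjamini-Hochberg adjusted p of 0.05 over all genes tested. The standard error is the log2 fold change divided by the root of the F statistic. On simulated data with 200 of 14654 genes changed, 85% of those changed by a log2 of 1 were recovered, and 7.58% of the calls were false. For 33962 transcripts 11% were recovered at that size, and 8.33% of the calls were false. Changes smaller than a log2 of 1 were not simulated. The members' log2 fold changes ran from -0.34 to 0.40, so the recovery of differences of their size is not known. The median biological coefficient of variation was 12.3%. Depth limits the member genes little, since their estimated counts were at least 645 in each library.

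Alternatives were other scalings, DESeq2 1.42.0, limma 3.58.1 (voom), other filters, a replicate block and leaving out each library. Another was a GC content and length correction (lowess, span 0.3, 21 tested genes without a value). Wherever limma-voom or voom is named, it was run with quality weights for the libraries. Named were all members, member transcripts of at least 5% share, from each pathway list the 2 genes of highest mean CPM and the gene with the smallest p in each direction, and the gene nearest to each member in profile. The members and lists were chosen with earlier results of these data known.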

Additional observations from a re-analysis of the deposited data

Results flagged for a closer look

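Of 52 groups of values examined, 4 held 1 library far from the rest of its group, where about 2.6 would by chance at 1 in 20. Gnai1 was at 274.4 CPM in AM6545 library E and at 250.7 to 254.5 CPM in the other AM6545 libraries, with vehicle at 174.0 to 224.3 CPM. Gnai2 was at 304.9 CPM in AM6545 library D, against 265.8 to 270.8 CPM in the others and 274.0 to 326.7 CPM with vehicle. The Gnai2 level per length, the same measurement on another scale, was 285.6 TPM in that library, against 248.7 to 254.1 TPM in the others. Gna14, a scarce Gq-class alpha subunit, was at 1.27 CPM in AM6545 library E and at 1.765 to 1.832 CPM in the others.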

How the results depend on the processing

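The number of genes past the threshold, 1 as reported, was 247 with DESeq2 (4546 genes without an adjusted p), 394 with voom, 2 without robust estimation, 2 with a mean of at least 50 counts, 0 with the GC content and length correction, and 0 to 944 on leaving out 1 library (0 without vehicle library B, 944 without vehicle library E). Of the members, 1 passed with DESeq2 (Gnai3) and 0 to 2 on leaving out 1 library (Gnai3 and Gng3 without vehicle library E). Members with an unadjusted p under 0.05, 3 as reported, were 0 with the GC content and length correction, 0 with the replicate block and that correction together, 2 with the replicate block alone, and 2 to 3 on leaving out 1 library. The list of other beta and gamma subunits had 2 calls with DESeq2 (Gng13, Gng5), 1 with voom (Gng5) and 0 to 2 without 1 library. The regulators had 1 with DESeq2, 1 with voom (Rgs4 in both) and 0 to 1. Assembly had 1 with voom (Rce1) and 0 to 1. The effectors had 1 with DESeq2 and 1 with voom (Adcy1 in both) and 0 to 5 (5 without vehicle library E). Transcripts past the threshold, 6 as reported, were 431 with DESeq2, 10 with a mean of at least 50 counts, 0 with the replicate block and 1 to 14 without 1 library; 2 member transcripts passed with DESeq2 (Gnb1-202, Gnai3-201).

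The log2 fold changes of Gnao1, Gnai1, Gnai3, Gnb5 and Gng3 kept their direction in all 19 alternatives. Reversed were Gnai2 with the replicate block and GC correction (0.0087), Gnaz with total counts (0.0032) and without vehicle library D (0.0509; -0.1288 to 0.0509 over the libraries left out), Gnb1 with voom (0.0059) and without vehicle library B (0.0576; -0.1148 to 0.0576), and Gnb2 with the GC correction (0.0004). The cause was not tested. Merged exon length, chosen after seeing the data, gave levels of 90.65 TPM for Gnao1, 223.7 for Gnai1, 222.5 for Gnai2, 36.04 for Gnai3, 101.5 for Gnaz, 154.2 for Gnb1, 110.8 for Gnb2 and 228.2 for Gng3.

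The letters B, D and E are shared by both groups, and the labels do not say what they stand for. Same-letter libraries did not deviate together from their group means (correlations -0.255, -0.13 and -0.18), and no library correlated best with its own letter. With 3 vehicle libraries centred on their own mean these correlations are tied to each other, so they cannot show whether the letters pair the libraries. The main fit had no block, and the block was an alternative. With the replicate block 1 gene passed the threshold, higher with AM6545, whereas the 1 gene passing as reported was lower, so that call was lost. Genes with an unadjusted p under 0.05 then numbered 1199.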

Other observations

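Estimates for some transcripts of the beta subunit genes varied widely between libraries. Gnb1-208 was estimated at 404.9 to 951.7 counts in 6 libraries and at 0 in vehicle library E, and Gnb1-203 at 57.7 counts in AM6545 library E and 852 counts in AM6545 library F. Gnb2-209 was estimated at 158.7 to 673.5 counts in 6 libraries and at 0 in AM6545 library E.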
